A study of Mus musculus with 30 samples.

Results

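The comparison set mouse embryonic stem (ES) cells held for 6 hours under 1% oxygen in N2B27, a serum-free medium, against the same cells held for 6 hours in N2B27 in ordinary culture. It used 8 of the 28 samples of the series, 4 in each group, chosen by their labels and paired by replicate number. Neither group received a drug. Every culture was of the Ainv15 line, a single male line derived from a blastocyst, which carries a doxycycline-inducible locus (as known of the study, for the intracellular domain of Notch1; the labels do not name it). No doxycycline was given to these 8 samples. Before the 6 hours, cells were maintained on gelatin in medium with serum, serum replacement and LIF. The low-oxygen cultures stood in a hypoxia workstation, and the oxygen level of the control cultures is not given as a number. The other groups of the series were ES cell medium, N2B27 with doxycycline at 2 ug/ml (Dox) or with DAPT, which inhibits gamma-secretase, at 2.5 ng/ml following 4 hours of pretreatment (DAPT), and both drug conditions under 1% oxygen (1% O2+Dox and 1% O2+DAPT). The last 4 groups served here to measure the same oxygen change in samples that neither of the main groups contains. All 28 samples, those in ES cell medium included, also entered the estimate of each gene's spread.

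Cells read oxygen through prolyl hydroxylases of the Egln family, which use oxygen to mark the alpha subunits of the hypoxia-inducible factors (HIFs) for destruction by the ubiquitin ligase that contains Vhl. When oxygen falls the alpha subunits accumulate, pair with a constant beta subunit and bind DNA at short sites with the core ACGTG or GCGTG. The genes known to be switched on in this way encode glycolytic enzymes and glucose transporters, secreted factors such as VEGF and adrenomedullin, brakes on growth such as the mTORC1 inhibitor Ddit4, and the Egln enzymes themselves, which closes a feedback loop. HIFs are mainly known as activators, and lower transcripts in low oxygen are described for costly processes such as ribosome production.

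RNA was measured on 1-colour Illumina bead arrays, as a fluorescence signal per probe that was background-corrected, put on a log2 scale and normalised across all arrays. Differences are given as log2 fold changes, 1% oxygen minus N2B27, with the standard error (SE) of a limma model that took the replicate number as a block. A gene was called when its Benjamini-Hochberg adjusted p over all 9826 genes tested was under 0.05. Of these genes, 1958 (19.9%) were called, 899 (9.15%) higher and 1059 (10.8%) lower under 1% oxygen. The balance between the directions depended on the processing. It was 951 higher and 713 lower in the authors' processed values and 713 higher and 1152 lower with median scaling. On the 8 samples alone it was 671 higher and 594 lower, and at an adjusted p under 0.01 it was 597 and 490. Without the block, 402 genes (4.09%) were called, 277 (2.82%) higher and 125 (1.27%) lower, and all 402 were among the 1958. Within replicates 1 and 2 alone 979 genes were called, 570 higher and 409 lower, and within replicates 3 and 4 alone 438, 301 higher and 137 lower.

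The replicate numbers fell into a pair of sets whose origin the labels do not give. The first principal component of the 8 samples (57.1% of the variance) separated replicates 1 and 2 from 3 and 4, and the second (22.2%) separated the oxygen levels. N2B27 samples 3 and 4 differed by an SD of 0.255 in log2 signal over genes, close to the 0.213 and 0.233 between repeat arrays of the same sample, whereas N2B27 samples 1 and 3 differed by 0.518. Separate cultures or days are not named in the labels, which give only numbered biological replicates. The p-values reflect the spread among all 28 samples of the fit, not these 8 alone, and part of it may be technical. ES cell markers (9 of 10 on the array) lay above background on all 8 arrays, with a summed signal of 44099 to 50498 in N2B27 and 44191 to 48567 under 1% oxygen. Fibroblast markers (9 of 9 on the array) summed to 759 to 1123 and 764 to 1033, with Lum, Postn and Fap at background and Col1a1, Thy1 and Pdgfrb above it on all 8 arrays. Thy1 was among the genes called lower and Pdgfrb among those called higher (adjusted p = 0.00609 and 0.0123), neither without the block, and the Pdgfrb call ended without 1% O2 replicate 4 (adjusted p = 0.0677). Endoderm markers (6 of 6) summed to 1863 to 2376 and 1952 to 2613, with Foxa2 and Afp at background and with Gata6 and Sox17 among the genes called higher. The Sox17 call ended on 5 of the 8 omissions of 1 sample, with a highest adjusted p of 0.132 (without N2B27 replicate 4). Trophectoderm markers (5 of 5) summed to 709 to 1195 and 747 to 1291, with Elf5 and Hand1 at background and Cdx2 and Krt7 above it on all 8 arrays. Mesoderm markers (4 of 5) summed to 128 to 222 and 138 to 221, with Mixl1, Mesp1 and Kdr at background on all 8 arrays. Of the early neural markers Sox1, Pax6 and Neurog2 were at background and Tubb3 above it on all 8 arrays. In bulk RNA, more cells of a type and more RNA per cell cannot be told apart.

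The rises were larger than the falls. In the main fit the falls were more numerous. The rises were more numerous without the block, on the 8 samples alone, within each replicate set and at an adjusted p under 0.01. At least 2-fold changes were found for 102 genes that rose and 1 that fell, and at least 1.5-fold changes for 264 and 52. The median log2 fold change was 0.41 among the rises, -0.30 among the falls and -0.02 over all genes tested. All 4 pairs had the same sign for 849 of the 899 rises and 975 of the 1059 falls, against 3535 of all 9826 genes tested. The calls were made from these same samples, so such counts among called genes are no separate support. Every sample of one group lay beyond every sample of the other for 385 rises and 331 falls. Of all genes tested 8.5% met this condition, 4.22% higher and 4.27% lower. Replicate pair 4 gave the smallest differences, with a median of 0.34 for the rises and -0.22 for the falls, against 0.45 to 0.46 and -0.34 to -0.32 in the other pairs.

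**Figure D1:**
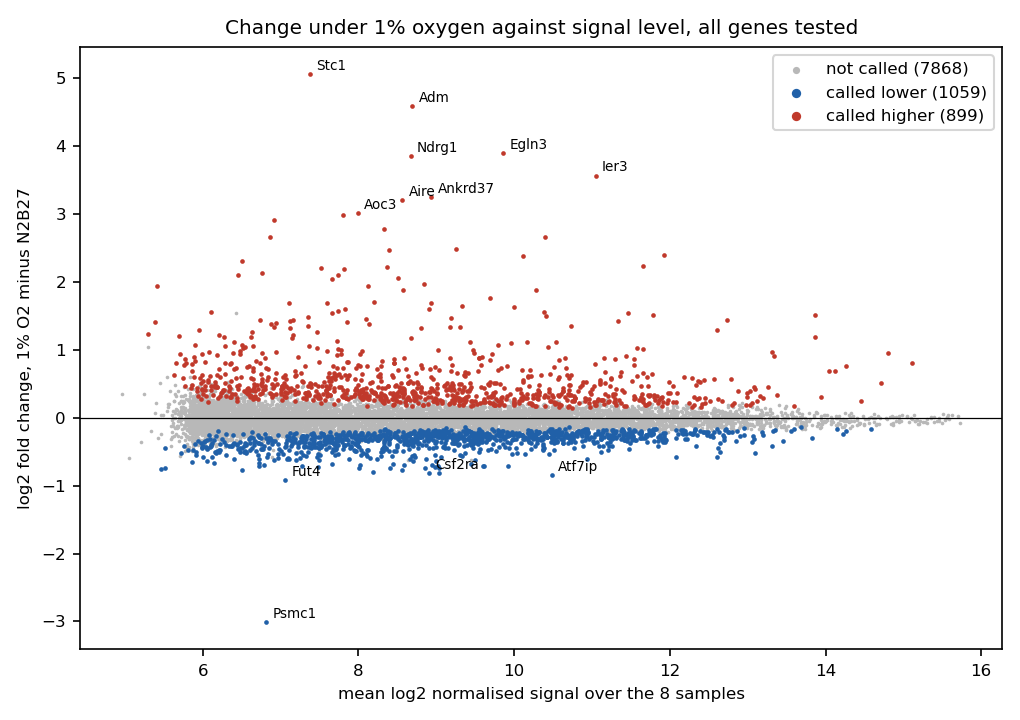
Log2 fold change (1% oxygen minus N2B27, y axis) against the mean log2 normalised signal over the 8 samples (x axis), 1 point for each of the 9826 genes tested. Red points are the 899 genes called higher and blue points the 1059 called lower; the rises reach 5.06, while the falls other than Psmc1 end at -0.91.

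The enzymes that sense oxygen were among the strongest rises, and the family split. Egln3, a prolyl hydroxylase known as a HIF target, had signals of 303, 271, 194 and 211 in N2B27 and 3783, 3354, 3538 and 3744 under 1% oxygen. The groups lay far apart, and the log2 fold change was 3.90 ± 0.18 (limma adjusted p = 8.19e-14). Egln1, the main oxygen sensor of most cells, gave 180.1, 125, 129 and 146 in N2B27 and 1106, 816, 754 and 574 under 1% oxygen. It rose in all 4 pairs, by 2.46 ± 0.16 (adjusted p = 3.19e-11), and 2 further Egln1 probes gave 1.59 and 1.74. Egln2, a family member not known as a HIF target, moved the other way, from 1435, 1436, 1118 and 1174 in N2B27 to 1257, 1137, 913 and 1037 under 1% oxygen. It was lower in each pair, by 0.25 ± 0.07 (adjusted p = 0.0147), but the groups overlapped because replicates 1 and 2 were higher than 3 and 4 at both oxygen levels, and it was not called without the block (adjusted p = 0.399). Leaving out N2B27 replicate 2 or 1% O2 replicate 3 also ended its call (adjusted p = 0.0597 and 0.0574). Vhl, which recognises the hydroxylated HIF subunits, rose by 0.40 ± 0.10 (adjusted p = 0.00775, and 0.989 without the block), with a far larger gap between the sets of replicates than between oxygen levels. Of the 7 measured members of the list of oxygen sensors and HIF subunits, 3 rose and 1 fell. Hif1a, Hif1an and Bnip3 had no probe that passed the filter on dim probes, and Epas1 and Kdm3a were not analysed here.

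The largest rise of all was that of Stc1, which encodes the secreted glycoprotein stanniocalcin. Its signals were 52.1, 28.5, 16.3 and 28.6 in N2B27 and 984, 802, 1137 and 952 under 1% oxygen. None of the N2B27 arrays was above its background limit (72.4 to 76.3 in normalised signal) and all 4 low-oxygen arrays were, so the rise is given as at least 12.9-fold (adjusted p = 3.8e-11). Adm, which encodes the vasodilator peptide adrenomedullin, gave 94.5, 93.9, 60.6 and 93.2 in N2B27 and 1914, 2048, 2659 and 1647 under 1% oxygen, a change of 4.60 ± 0.17, or 24.2-fold (adjusted p = 3.94e-15). Its lowest sample under 1% oxygen was far above its highest in N2B27. The Adm probe was above background on 3 of 4 N2B27 arrays, so the fold rests on N2B27 signals near the limit. Vegfa, the vascular growth factor gene, gave 839, 791, 763 and 724 in N2B27 and 2223, 2458, 2598 and 1913 under 1% oxygen. This rise of 1.55 ± 0.11 (2.93-fold, adjusted p = 3.48e-10) was again free of overlap. Cxcl12, a chemokine gene, rose by 1.89 ± 0.15, although its second probe gave 0.33, and Loxl2, a matrix cross-linking enzyme gene, by 1.70 ± 0.14. Among the 18 measured secreted factors of the hypoxic response, 10 rose and 1 fell (8 and 0 without the block), with a median log2 fold change of 0.59 against -0.02 over all genes. The member that fell was Ccn1, a matrix-associated signalling protein gene (0.55 ± 0.13 lower, adjusted p = 0.00298).

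Genes for glucose uptake, glycolysis and lactate production rose. Slc2a1, the gene for glucose transporter GLUT1, had signals of 8709, 9097, 8877 and 8612 in N2B27 and 24648, 28578, 26259.6 and 22134 under 1% oxygen. Its groups were well separated, with a change of 1.52 ± 0.07 (2.87-fold, adjusted p = 2.09e-13). Slc2a3, the gene for the neuronal-type transporter GLUT3, rose by 0.96 ± 0.07. Pfkfb3, whose product makes the activator of phosphofructokinase, gave 158, 123, 114 and 101 in N2B27 and 1175, 894, 696 and 679 under 1% oxygen. It had the smallest adjusted p of the comparison (1.23e-16), with a rise of 2.78 ± 0.08. The phosphofructokinase subunit genes Pfkp and Pfkl rose by 1.49 ± 0.07 and 1.29 ± 0.06, and the aldolase gene Aldoc rose by 1.88 ± 0.08. Ldha, the lactate dehydrogenase subunit gene, went from 16513, 14692, 14431 and 14692 to 28378, 24267, 25533 and 24479.5, a smaller change of 0.77 ± 0.07 that was equally free of overlap. Pdk1, whose product keeps pyruvate out of the citric acid cycle, rose by 0.64 ± 0.07 (adjusted p = 1.22e-06). In the glycolysis and lactate list 12 of 20 measured members rose and 0 fell, with or without the block, and the median was 0.66.

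Most measured genes of glycogen and hexosamine metabolism rose, and 1 carbonic anhydrase gene rose strongly. Pgm1, which interconverts glucose phosphates on the way to glycogen, had signals of 1738, 1675, 1664 and 1678 in N2B27 and 9929, 9138, 10028 and 6963 under 1% oxygen. The N2B27 samples agreed closely and the change was 2.40 ± 0.09 (5.28-fold, adjusted p = 3.94e-15). Ppp1r3c, a targeting subunit that brings a phosphatase to glycogen, rose by 2.10 ± 0.08, and Gys1, glycogen synthase, by 1.17 ± 0.12, with 0.34 and 0.98 for its 2 further probes. Of the 10 measured members of the glycogen and hexosamine list, 6 rose and 0 fell (4 and 0 without the block). The membrane carbonic anhydrase gene Car12, which helps export acid, rose by 1.97 ± 0.15. Car9, the related gene often used as a marker of hypoxia, gave 58.8, 61.9, 80.4 and 82.1 in N2B27 and 87.0, 84.7, 75.9 and 73.8 under 1% oxygen and was not called (0.19 ± 0.12, adjusted p = 0.263). Its probe was above background on 2 of 4 and 3 of 4 arrays, and a second, dimmer Car9 probe gave 0.87. Transport of glucose, lactate and protons as a list had 4 of 10 members higher and 0 lower.

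Of the inhibitors of growth and regulators of cell death 5 of 12 rose, some of them strongly. Ier3, an early response gene that affects cell survival, had signals of 718, 873, 447 and 509 in N2B27 and 8523, 7723, 8196 and 5230.1 under 1% oxygen, a change of 3.57 ± 0.15 (11.9-fold, adjusted p = 1.58e-14). Ddit4, which restrains mTORC1, gave 398, 389, 682 and 524 in N2B27 and 2714, 1947, 3408 and 2246 under 1% oxygen. All samples of its groups were separate, and it rose by 2.38 ± 0.12 (adjusted p = 4.04e-13). Bnip3l, a mitophagy receptor gene, rose by 1.12 ± 0.08, and Pmaip1, which encodes the cell death protein Noxa, by 0.73 ± 0.10. In that list 0 fell, 7 of 12 were not called, and without the block 3 were higher. Ccng2, an atypical cyclin gene linked to arrest, rose from 87.6, 71.6, 138 and 142 to 314, 265, 802 and 793. The samples of replicates 3 and 4 were higher at both oxygen levels, and the change was 2.19 ± 0.15 (adjusted p = 1.35e-10). The cell cycle inhibitor gene Cdkn1a rose by 0.38 ± 0.09 (adjusted p = 0.0027, and 0.378 without the block).

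Other oxygen-using enzymes rose in part. The JmjC histone demethylases need oxygen as a substrate, and 5 of 17 measured genes rose while 1 fell (2 and 0 without the block). Of all genes 9.15% were called higher and 10.8% lower, and the list median was 0.08. Among the 5, Kdm2a was higher in 3 of 4 pairs and above background on 1 of 4 N2B27 and 2 of 4 low-oxygen arrays. Kdm4a was above it on 2 of 4 in each group. Kdm4b rose by 1.35 ± 0.12, while its second probe gave 0.07, Kdm4c by 0.84 ± 0.08 and Kdm5b by 0.61 ± 0.06. The member that fell was Riox1, a ribosomal oxygenase gene, by 0.30 ± 0.08. The collagen prolyl hydroxylase genes P4ha1 and P4ha2 rose by 1.94 ± 0.16 and 1.76 ± 0.13, and Plod2, a lysyl hydroxylase gene, by 1.63 ± 0.07. Their list had 6 of 14 members higher and 0 lower (3 and 0 without the block). Among transcription factors linked to hypoxia 7 of 15 rose and 1 fell. Bhlhe40, a basic helix-loop-helix repressor gene, led with 1679, 1339, 1615 and 1326 in N2B27 and 6944, 5764, 8109 and 7277 under 1% oxygen, a change of 2.23 ± 0.09 (adjusted p = 3.94e-15). The AP-1 genes Fos and Fosl2 rose by 1.43 ± 0.14 and 0.97 ± 0.15, although a second Fosl2 probe gave -0.05, while Junb fell by 0.20 ± 0.07 (adjusted p = 0.0352). The Junb call ended on 6 of the 8 omissions of 1 sample, with a highest adjusted p of 0.114 (without N2B27 replicate 1).

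Several of the 20 largest rises lay outside these lists. Ndrg1, a stress-responsive gene, went from 134, 113, 94.1 and 91.6 to 2028, 1541, 2008 and 930.1, a rise of 3.86 ± 0.17 in which 1% O2 replicate 4 was the lowest of the low-oxygen samples. Ankrd37, an ankyrin repeat gene, rose from 151, 166, 163 and 157 to 1999, 1449, 1629 and 1102 (3.25 ± 0.17). Aire, best known as the regulator that makes the thymus express tissue antigens, rose from 116, 143, 119 and 122 to 841, 1207, 1244 and 1368 (3.20 ± 0.15). In Ndrg1, Ankrd37 and Aire no low-oxygen sample came near the N2B27 range. Others were the amine oxidase gene Aoc3 (3.02 ± 0.12), the Cdc42 effector gene Cdc42ep2 (2.98 ± 0.15), the mitochondrial protein gene Mgarp (2.67 ± 0.13), the cytochrome P450 gene Cyp2s1 (2.48 ± 0.14) and the protease inhibitor gene A2m (2.31 ± 0.29). H2-Ab1, a chain of the class II antigen-presenting complex, and Nxph4, a neurexophilin gene, were at background on all 4 N2B27 arrays and rose at least 4.47-fold and 3.96-fold. A second H2-Ab1 probe gave 1.28. The methyltransferase gene Prmt8 rose by 2.22 ± 0.13 (adjusted p = 5.17e-12) from a level that differed between the sets of replicates, 90.9, 89.1, 204 and 331 in N2B27 against 398, 447, 1172 and 1241. All 20 had the same sign in the 4 pairs, as the naming rule required.

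**Figure D2:**
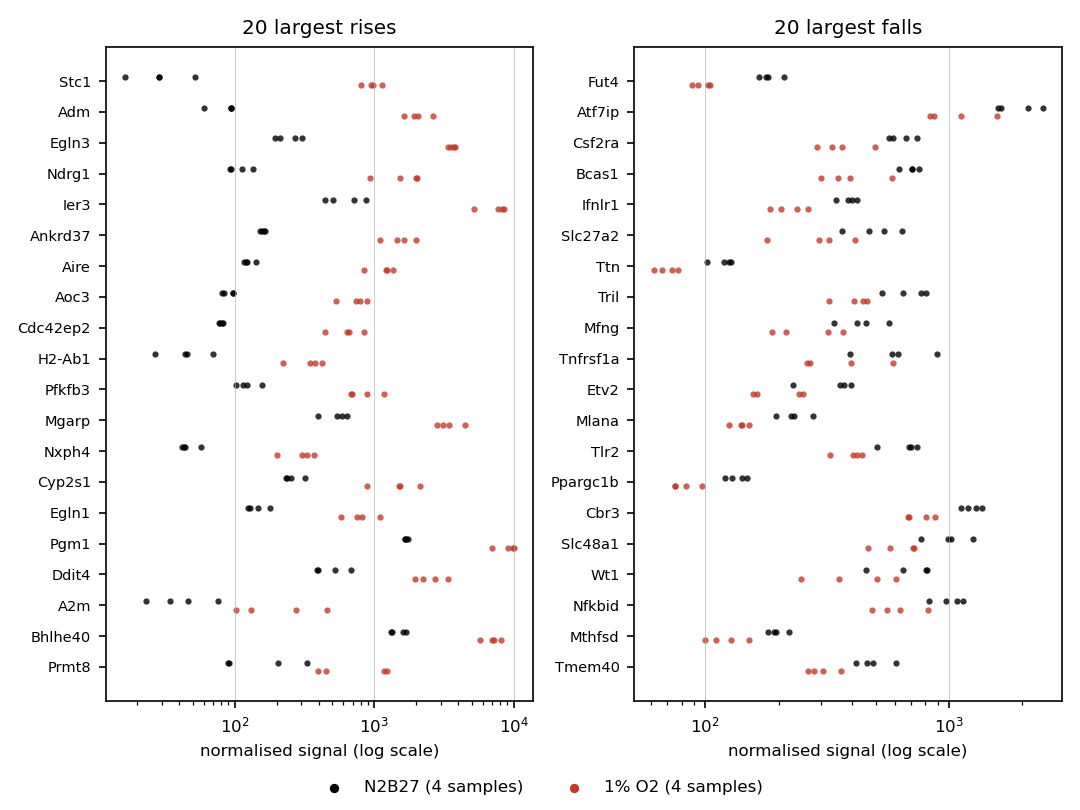
Normalised signal (log scale, x axis) of the 20 genes with the largest rises (left) and the 20 with the largest falls (right), with 4 N2B27 samples in black and 4 samples under 1% oxygen in red. The red points of the rises stand several-fold to the right of the black ones, while those of the falls sit just to the left, and the 2 groups of Slc27a2, Mfng, Tnfrsf1a, Etv2 and Wt1 overlap.

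Some of the genes with the largest rises carry the short core of a HIF site in their promoters. Windows from 250 bases before to 50 after the start were taken from RefSeq (GRCm38.p6), which held 1 or more for 7965 of the 9826 genes. The motif ACGTG was searched on both strands, and a gene counted if any of its windows held it. It was present for 38.3% of 702 rises, 26.6% of 865 falls and 28.7% of all 7965 genes. Among rises of at least 2-fold the share was 47.5% of 80 genes, and among falls of at least 1.5-fold 18.9% of 37. These sets held a mean of 1.46 and 1.19 windows per gene, against 1.28 over all genes, and a gene with more windows has more chances of a match. With the genes split into 3 parts of low, middle and high GC content in their promoters, the share was 36.4%, 39.0% and 39.1% of the rises and 25.5%, 29.8% and 30.9% of all genes. The alternative core GCGTG, searched in the same way and able to share bases with ACGTG, was in 57.1% of rises, 57.5% of falls and 54.7% of all genes. A match is a description of letters and does not show binding.

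Of the 20 largest rises 13 had a promoter window and 8 of these held ACGTG, against 4 of 14 among the 20 largest falls. Stretches of 100 bases before the start are shown for 5 rises, where the motif stands in capitals, and for Fut4. Fut4 was the largest of those 20 falls and has no motif in its windows. All stretches are printed 5′ to 3′ on the strand of the gene, with positions in GRCm38.p6. The Pgm1 stretch holds 2 copies.
Egln1 (chr8:124949271-124949370, minus strand): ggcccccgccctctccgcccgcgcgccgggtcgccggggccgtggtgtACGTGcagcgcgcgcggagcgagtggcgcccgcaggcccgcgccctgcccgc
Ankrd37 (chr8:45999851-45999950, minus strand): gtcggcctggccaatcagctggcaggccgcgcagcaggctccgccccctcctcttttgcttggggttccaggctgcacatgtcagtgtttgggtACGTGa
Pfkfb3 (chr2:11553938-11554037, minus strand): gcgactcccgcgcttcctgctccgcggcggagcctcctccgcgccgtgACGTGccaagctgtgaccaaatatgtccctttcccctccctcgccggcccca
Pgm1 (chr4:99929209-99929308, plus strand): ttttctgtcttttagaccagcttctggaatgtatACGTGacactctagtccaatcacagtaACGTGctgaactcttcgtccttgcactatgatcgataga
Ddit4 (chr10:59951906-59952005, minus strand): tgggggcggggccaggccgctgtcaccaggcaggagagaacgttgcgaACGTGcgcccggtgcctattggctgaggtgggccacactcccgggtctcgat
Fut4 (chr9:14752123-14752222, minus strand): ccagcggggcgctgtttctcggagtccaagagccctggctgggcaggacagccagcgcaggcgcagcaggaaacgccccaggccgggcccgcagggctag

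The falls were smaller, and the 20 largest that kept their sign in all pairs ranged from -0.70 to -0.91. Fut4, a fucosyltransferase gene, had signals of 166, 178, 209.7 and 181 in N2B27 and 93.7, 102, 88.3 and 105 under 1% oxygen. The groups did not overlap, and it was 1.88-fold lower under 1% oxygen (-0.91 ± 0.11, adjusted p = 1.84e-06). Atf7ip, a partner of the histone methyltransferase Setdb1, fell from 1595, 1642, 2118 and 2423 to 872, 840.2, 1119 and 1583, by 0.84 ± 0.10 (adjusted p = 1.29e-06). Its highest sample under 1% oxygen, replicate 4, came just below its lowest N2B27 sample, and a second probe gave -0.68. Ppargc1b, a coactivator gene that drives mitochondrial biogenesis, fell from 129, 149, 121 and 141 to 75.4, 75.0, 96.6 and 83.2, by 0.71 ± 0.10 (adjusted p = 1.47e-05). Slc27a2, a fatty acid transport gene, and Slc48a1, a heme transport gene, fell by 0.77 ± 0.10 and 0.71 ± 0.10. Ttn, the titin gene, fell by 0.76 ± 0.08, with 1 of 4 low-oxygen arrays above background. The transcription factor genes Wt1 and Etv2 fell by 0.71 ± 0.10 and 0.74 ± 0.11, in each pair but with overlapping groups.

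Receptors and regulators of innate immunity were prominent in the falls. Tlr2, a receptor for bacterial lipoproteins, had signals of 507, 689, 701 and 737 in N2B27 and 325, 421, 403 and 441 under 1% oxygen. It fell by 0.72 ± 0.07 (adjusted p = 2.3e-08), with no overlap. Csf2ra, a receptor chain for GM-CSF, fell from 587, 570.1, 667 and 742 to 363, 287, 330.2 and 496, by 0.82 ± 0.09 (adjusted p = 3.2e-07). Replicate 4 was the highest of the low-oxygen samples and still below all N2B27 samples. Tril, which assists Toll-like receptors, fell by 0.75 ± 0.08, Tnfrsf1a, a receptor for TNF, by 0.74 ± 0.12, and Nfkbid, an inhibitor of NF-kappaB, by 0.71 ± 0.11. Ifnlr1, a chain of the interferon lambda receptor, fell by 0.80 ± 0.11, but its second probe gave 0.02. Of 24 measured members of the list of innate immune receptors and interferon response, 7 fell and 2 rose (4 and 2 without the block), against 10.8% and 9.15% of all genes, with a median of -0.10. The members that rose were the interferon regulatory factor gene Irf1 (0.77 ± 0.10, with its 3 further probes between 0.09 and 0.80) and the interferon gamma receptor gene Ifngr1 (0.54 ± 0.10).

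A minority of the genes for making ribosomes, in mitochondria and in the nucleolus, fell by small amounts, and nearly all calls among them were falls. Of 63 measured genes of the mitochondrial ribosome 13 fell and 0 rose, with a median of -0.11 and negative values for 57. Mrps2 went from 825, 814, 760.1 and 693 to 597, 563, 548 and 637, a fall of 0.40 ± 0.09 (adjusted p = 0.00345), and Mrpl19 from 2603, 2608, 2926 and 3256 to 1928, 2232, 2074 and 2284, by 0.42 ± 0.11. Neither gene's groups overlapped. Of 50 ribosome biogenesis genes 12 fell and 1 rose, with a median of -0.10. Surf6, a nucleolar factor gene, fell from 206, 194, 245 and 225 to 140.4, 159, 129.8 and 155, by 0.57 ± 0.08 (adjusted p = 3.06e-05). Polr1e, a subunit gene of RNA polymerase I, fell by 0.36 ± 0.08. The member that rose was Pes1, a factor for the large subunit, by 0.34 ± 0.06. Without the block 2 falls of each list were called, within replicates 1 and 2 alone 2 and 6, and within replicates 3 and 4 alone 0 and 1. With the block the 13 of 63 and 12 of 50 stand against 10.8% of all genes. Of 40 cytoplasmic ribosomal protein genes 1 was called, Rpl22, which rose by 0.31 ± 0.07, and the median was 0.00.

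Genes of mitochondrial respiration itself were for the most part not called. Among 52 measured genes of the respiratory chain and ATP synthase 2 rose, Ndufv3 by 0.43 ± 0.07 and Ndufa8 by 0.14 ± 0.05, and 0 fell (limma; 0 and 0 without the block). The Ndufa8 call ended on 7 of the 8 omissions of 1 sample, with a highest adjusted p of 0.156 (without N2B27 replicate 1). Among 21 genes of the citric acid cycle 0 were called, with values from -0.25 to 0.21. The import list had 4 of 26 members lower and 1 higher (3 and 0 without the block), against 10.8% and 9.15% of all genes. Within replicates 3 and 4 alone 0 falls of this list were called (limma). Timm10 and Timm9, small chaperone genes of the intermembrane space, fell by 0.41 ± 0.07 and 0.31 ± 0.06. The other falls of this list were those of Ppargc1b and of Polrmt, the mitochondrial RNA polymerase gene (0.25 ± 0.07 lower), whose call ended on 3 of the 8 omissions, with a highest adjusted p of 0.0599 (without N2B27 replicate 3). Lonp1, a matrix protease gene, rose by 0.26 ± 0.06. The mitochondrial iron importers Slc25a37 and Slc25a28 fell by 0.52 ± 0.12 and 0.46 ± 0.06, while Tfrc, the transferrin receptor gene, rose by 0.47 ± 0.12.

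DNA repair and germline genes had only falls among their calls. In the repair list 7 of 29 measured members fell and 0 rose, against 10.8% and 9.15% of all genes (2 falls without the block, 4 within replicates 1 and 2 alone and 1 within replicates 3 and 4 alone), and 13 of the 29 had positive values. Lig3, a DNA ligase gene, fell from 1414, 1209.6, 1192 and 1235 to 933, 836, 791 and 953, by 0.52 ± 0.08 (adjusted p = 6.9e-05). The recombination gene Xrcc3 and the BRCA1 partner gene Bard1 fell by 0.47 ± 0.09 and 0.41 ± 0.10, in both cases without overlap. Of 10 measured germline genes 4 fell and 0 rose, of which 2 falls were called without the block and 0 within replicates 3 and 4 alone. Tex19.1, which protects germ cells and ES cells from retrotransposons, went from 6656, 9179.8, 7476 and 7455 to 4434, 5172, 5166 and 5786, by 0.58 ± 0.12 (adjusted p = 0.00102). Its paralogue Tex19.2 fell by 0.68 ± 0.13 and the meiotic kinase gene Aurkc by 0.61 ± 0.11. Replication and mitosis as lists gave 3 of 33 and 2 of 25 members lower and 1 higher in each, below the 10.8% and 9.15% over all genes. Without the block 0 of either list were called (limma), and with median scaling 4 mitosis genes were lower, where 1152 of 9826 genes were. Kif23, a kinesin gene of cell division, rose by 0.58 ± 0.09.

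The NRF2, ATF4 and p53 lists held calls in both directions. In the NRF2 and metal response list 4 of 16 members rose and 5 fell (3 and 3 without the block). The metallothionein genes Mt1 and Mt2 rose by 0.81 ± 0.07 and 0.67 ± 0.10, and Hmox1, heme oxygenase, by 0.58 ± 0.09. Cbr3, a carbonyl reductase gene, fell from 1288, 1365, 1197 and 1125 to 877, 806, 689 and 681, by 0.71 ± 0.07 (adjusted p = 1.51e-07), and was free of overlap. The glutathione synthesis gene Gclm and the sulfiredoxin gene Srxn1 fell by 0.42 ± 0.07 and 0.42 ± 0.06. In the list of ATF4 targets 4 of 20 rose, Ddit4, the lipoprotein receptor gene Vldlr (2.06 ± 0.12, with 0.35 for a second probe), the secreted factor gene Stc2 (1.41 ± 0.11) and Ppp1r15a (0.50 ± 0.09), and 2 fell. Among endoplasmic reticulum chaperones and regulators 2 of 15 fell and 0 rose (0 without the block), and Xbp1, a transcription factor of the unfolded protein response, fell by 0.42 ± 0.09. For p53 targets 2 of 16 rose, Pmaip1 and Cdkn1a, and 3 fell, among them Aen, an exonuclease gene of apoptosis, by 0.33 ± 0.08. The counts of all these lists stand against 9.15% higher and 10.8% lower over all genes, and the endoplasmic reticulum share of 13.3% lower is near the latter. Without the block 0 of the 16 p53 targets were called (limma).

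Genes of cholesterol synthesis rose together by small amounts. Of 18 measured members 13 were higher and 0 lower, all 18 had positive values, and the median was 0.32. Stard4, a sterol carrier gene, went from 2269, 2037, 2216 and 1985 to 4125, 3505, 3312 and 2303, a rise of 0.61 ± 0.11 (adjusted p = 0.000193). Mvd and Lss, enzymes of the pathway, rose by 0.52 ± 0.11 and 0.45 ± 0.07, and the sterol oxidase gene Msmo1 by 0.46 ± 0.09. Without the block 0 of the 18 were called (limma), within replicates 1 and 2 alone 8 and within replicates 3 and 4 alone 0. The pairs differed, and pair 4 gave the smallest rise for Stard4, Mvd and Msmo1. Fatty acid synthesis and storage had 6 of 17 higher and 0 lower (0 and 0 without the block), with the desaturase genes Scd2 and Scd1 at 0.51 ± 0.06 and 0.33 ± 0.07 and the lipid droplet gene Hilpda at 0.44 ± 0.09.

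**Figure D3:**
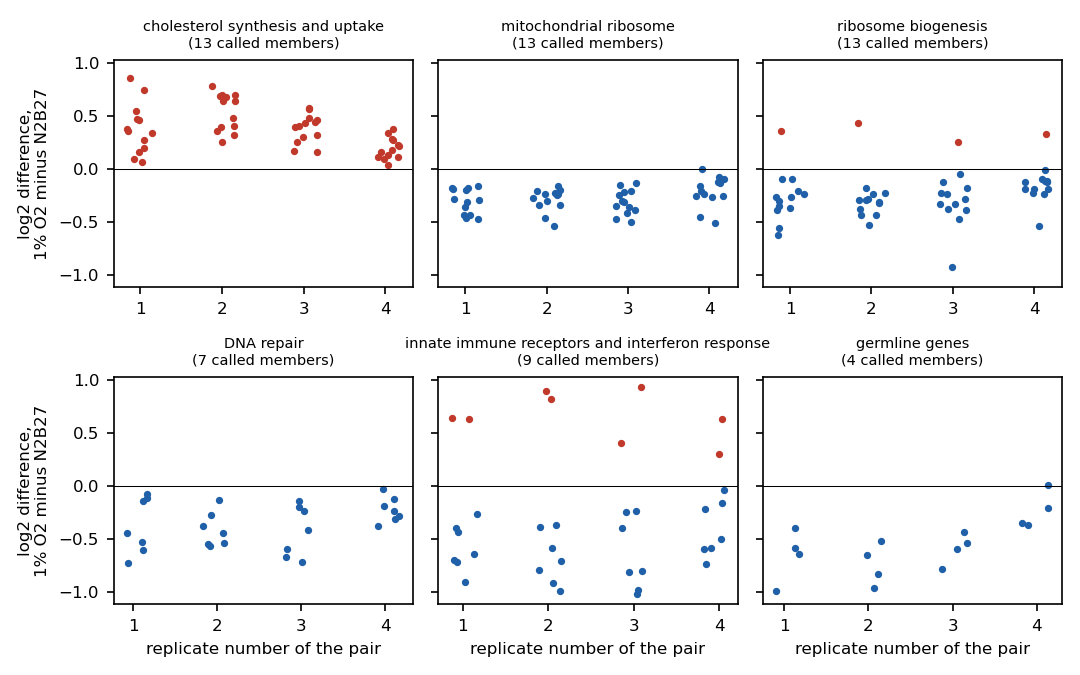
Log2 difference between 1% oxygen and N2B27 in each replicate pair (x axis, replicate number) for the called members of 6 lists, with 1 point per gene and pair, red for genes called higher and blue for genes called lower. The 13 cholesterol genes are above 0 in each pair, and nearly all points of the falling members of the other lists lie below 0.

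The core of the pluripotency network was not called, and the calls among its other members went both ways. Pou5f1 had signals of 7539.9, 7539.9, 4253 and 4879 in N2B27 and 9329.8, 8411, 4767 and 4602 under 1% oxygen (log2 fold change 0.14 ± 0.07, adjusted p = 0.162). Nanog gave 0.05 ± 0.07 (adjusted p = 0.67), Sox2 0.22 ± 0.10 (0.138), Esrrb -0.16 ± 0.06 (0.0776) and Myc -0.19 ± 0.11 (0.275). The samples of Pou5f1 and Sox2 split by replicate set far more than by oxygen. Of 25 measured network genes 4 rose and 4 fell (2 and 0 without the block), or 16% each way, against 9.15% and 10.8% of all genes. Within replicates 3 and 4 alone 0 falls were called (limma). The Krüppel-like factor genes Klf2 and Klf4 rose by 0.73 ± 0.07 and 0.27 ± 0.07, the Nodal co-receptor gene Tdgf1 by 0.71 ± 0.10, and Dnmt3l, a partner of de novo DNA methyltransferases, by 0.45 ± 0.06. Dppa2 and Dppa4, which prime developmental genes, fell by 0.37 ± 0.09 and 0.34 ± 0.06, and the TGF-beta family gene Gdf3 by 0.32 ± 0.07. For Klf4 its 2 further probes gave -0.01 and 0.29, and median scaling ended the call (adjusted p = 0.0974).

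Among signalling pathways the LIF list leaned down and the Notch list was mixed. In the LIF and STAT3 list 6 of 20 measured genes fell and 3 rose, against 10.8% and 9.15% of all genes, with a median of -0.17. Its largest change was a rise, that of Ier3 (3.57). Without the block 1 of the 6 falls and 1 rise were called. Pim3, a kinase gene, went from 6361, 7258, 8523 and 8548 to 4235, 4962, 6355 and 6346, a fall of 0.50 ± 0.05 (adjusted p = 1.89e-07). The NF-kappaB cofactor gene Bcl3 fell by 0.49 ± 0.09, the feedback inhibitor gene Socs2 by 0.44 ± 0.08 and the receptor gene Lifr by 0.40 ± 0.09, while Socs3, the other feedback inhibitor, rose by 0.53 ± 0.07. In the Notch list 7 of 22 rose and 3 fell (3 and 1 without the block). The receptor gene Notch1 went from 653, 697, 904 and 817 to 440.4, 468, 615 and 586, a fall of 0.54 ± 0.08 (adjusted p = 1.48e-05), and Mfng, which modifies Notch receptors, fell by 0.74 ± 0.18. The target genes Hey1 and Hes1 rose by 0.76 ± 0.16 (adjusted p = 0.00154) and 0.23 ± 0.08 (0.0431). The Hes1 call ended on 7 of the 8 omissions of 1 sample, with a highest adjusted p of 0.152 (without N2B27 replicate 4), and with median scaling (0.139). Hes6 and Notch4 rose by 0.53 ± 0.08 and 0.59 ± 0.10.

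Several developmental genes rose. Otx2, a homeobox gene of the epiblast and forebrain, went from 373, 391, 401 and 426 to 852, 1035, 1136 and 1004, a rise of 1.33 ± 0.11 (adjusted p = 2.78e-09) with no overlap. Lef1, a Wnt effector gene, rose by 1.34 ± 0.09, with 2 of 4 N2B27 arrays above background, Sox9 by 0.99 ± 0.14, and Eomes, a factor of trophectoderm and mesoderm, by 0.82 ± 0.10. Krt19, a keratin gene, rose by 1.44 ± 0.22 from levels that ran from 35.9 to 132 in N2B27. Of the longer lists of lineage markers, trophectoderm had 5 of 12 measured members higher, neural 4 of 11, endoderm 4 of 10 and mesoderm 2 of 11, with 0 lower in each, against 9.15% higher over all genes. With no filter on dim probes the endoderm count went from 4 to 1 and the trophectoderm count from 5 to 3. Endoderm had 1 within replicates 1 and 2 alone and 0 within replicates 3 and 4 alone, and trophectoderm 1 within replicates 3 and 4 alone. Without the block the 2 called were the neural list's Otx2 and Sox9. Fibroblast markers split, with 2 of 10 higher and 2 lower. Whether the share of other cell types contributes to these rises was not tested.

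**Figure D4:**
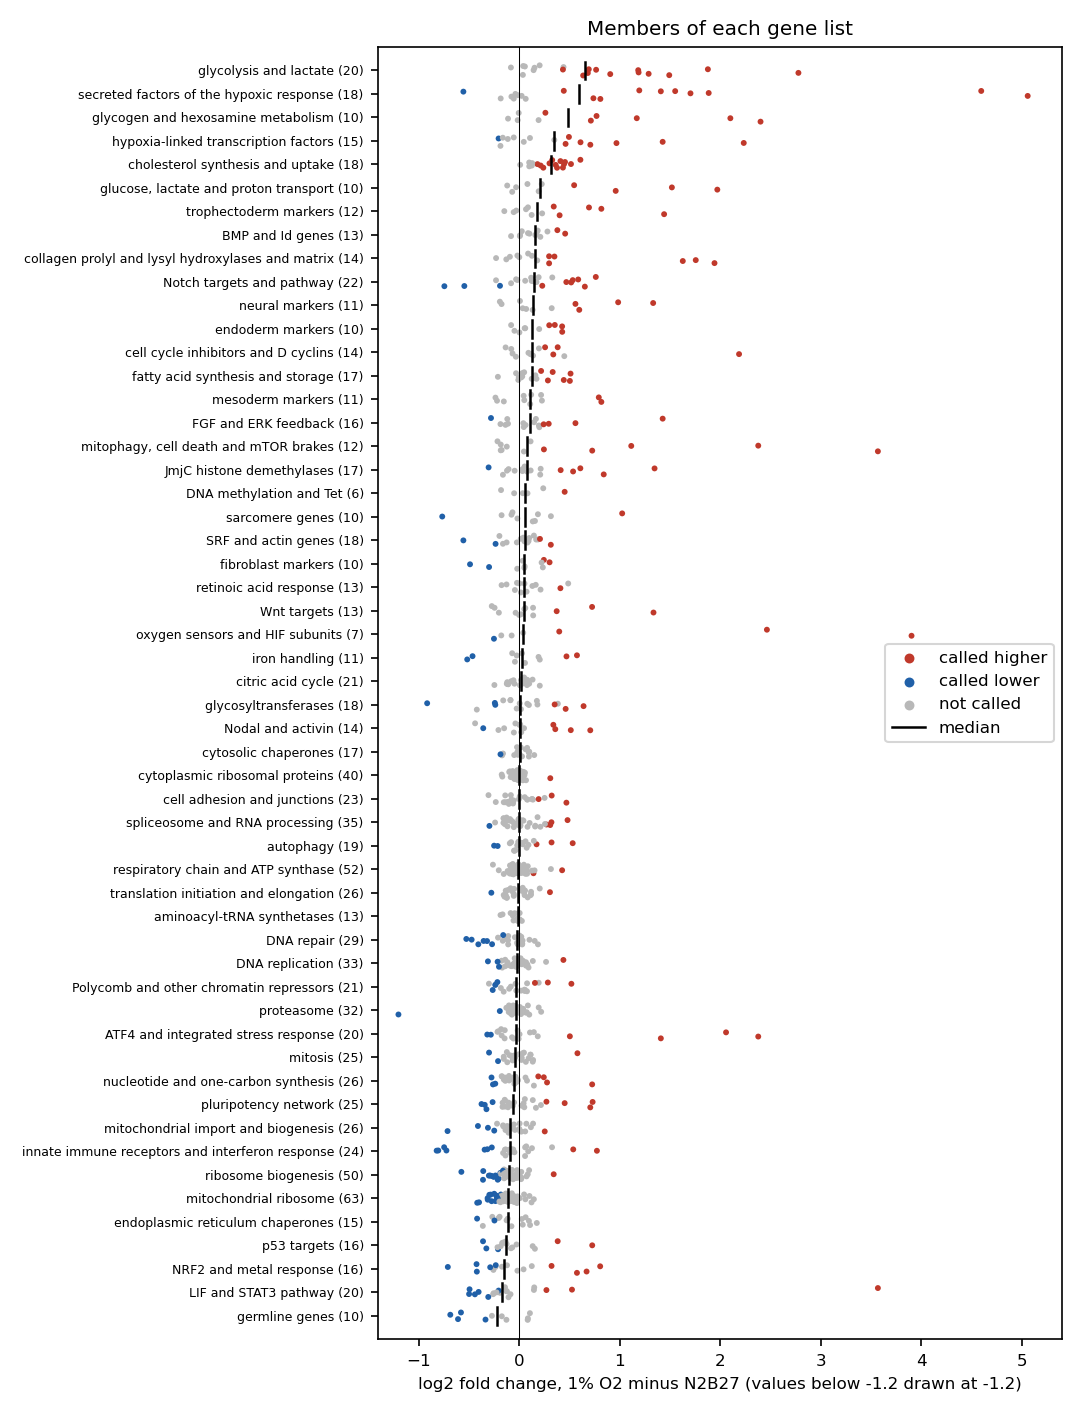
Log2 fold change (x axis, 1% oxygen minus N2B27) of the measured members of the 54 gene lists, ordered by the list median (black bar), with the number measured in parentheses. Red and blue points are genes called higher and lower; the glycolysis and secreted factor lists lie at the top with medians of 0.66 and 0.59, and the germline list at the foot with -0.22.

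The same oxygen change was measured in samples given doxycycline or DAPT, which do not include the 8 samples above but share their replicate numbers. Between 1% O2+Dox and Dox 1908 genes were called (19.4%, with 9.1% higher and 10.3% lower), and between 1% O2+DAPT and DAPT 2059 (21%, with 9.37% higher and 11.6% lower). Of the 899 rises 97.6% were also positive with doxycycline, where 44.9% of all genes were positive, and 97.8% with DAPT. Of the 1059 falls 96.5% and 97.5% were also negative, where 55.1% and 54.8% of all genes were. The numbers called in the same direction were 656 and 666 of the rises and 636 and 671 of the falls. Rises called in all 3 comparisons numbered 571 and falls 510. The 3 comparisons come from the same fit and share the estimate of each gene's spread, so their calls are not independent. Across all 9826 genes, which are not independent replicates, the no-drug change correlated with that in the drug pairs at a Pearson r of 0.86 with doxycycline and 0.87 with DAPT (Spearman rho 0.69 and 0.70). Among the 899 rises Pearson r was 0.96 and 0.96 (rho 0.82 and 0.84). Among the 1059 falls it was lower, 0.37 and 0.73, while rho was nearly the same with both drugs (0.55 and 0.57). These falls include Psmc1, at -3.00 without a drug, while the others end at -0.91. The oxygen effect at Psmc1 was positive with doxycycline and negative with DAPT. How far this gene alone moved the Pearson values was not tested.

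Large rises were of similar size with either drug, and some falls were smaller in value. Adm gave 4.56 with doxycycline and 4.45 with DAPT, Egln3 3.68 and 3.79, and Pfkfb3 2.89 and 2.65. Tlr2 gave -0.72 and -0.75, and Csf2ra -0.83 and -0.83, close to their values of -0.72 and -0.82 without a drug. Fut4 gave -0.59 and -0.39, against -0.91 without a drug, but the difference of these effects was not called with either drug. In a test of the difference itself the oxygen effect with doxycycline departed from that without a drug for 2 genes (0.0204%, with 0.0102% in each direction), with 399 at an unadjusted p under 0.05. With DAPT it departed for 0 genes (limma), with 420 at an unadjusted p under 0.05 and a smallest adjusted p of 0.146. A p that misses the threshold does not show that the effects were equal.

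Slc2a1 and Ccdc160 were the genes that differed. The log2 level of Slc2a1 went from 13.11 ± 0.03 to 14.63 ± 0.16 (mean ± SD, n = 4) without a drug and from 13.90 ± 0.09 to 14.63 ± 0.03 with doxycycline. The oxygen effect was thus 1.52 without and 0.73 with doxycycline, a difference of -0.79 ± 0.10 (adjusted p = 0.000942). The levels under 1% oxygen nearly coincided, while the level in ordinary culture was higher with doxycycline. With DAPT the effect was 1.59. Ccdc160, a coiled-coil gene, fell by 0.34 ± 0.06 without a drug and changed by 0.20 with doxycycline, a difference of 0.54 ± 0.09 (adjusted p = 0.0267).

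**Figure D5:**
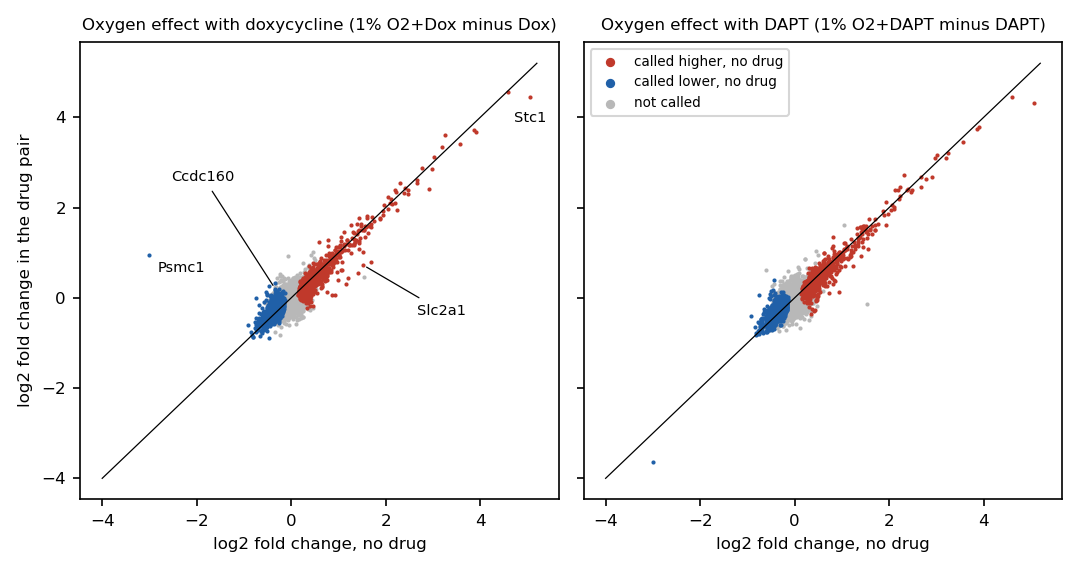
Log2 fold change for oxygen in the drug pairs (y axis, doxycycline left, DAPT right) against that without a drug (x axis) for the 9826 genes, with the line of equality. Red and blue points are the genes called higher and lower without a drug; the rises follow the line up to Stc1, Slc2a1 lies below it with doxycycline at 0.73 against 1.52, and Psmc1 has opposite signs in the 2 panels.

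The only fall beyond 2-fold was that of Psmc1, a proteasome subunit gene. Psmc1 lies outside the naming rule for the largest falls and was named as a called member of the proteasome list. It was singled out for description after its values were seen. It had signals of 1464, 1874, 50.6 and 74.9 in N2B27 and 42.1, 27.4, 56.2 and 38.7 under 1% oxygen. Only N2B27 samples 1 and 2 were high, the groups overlapped, and the adjusted p was 0.045 with the block and 0.379 without it. The change was -5.61 in replicates 1 and 2 alone and -0.40 in replicates 3 and 4 alone, and the call ended on 5 of the 8 omissions of 1 sample, with a highest adjusted p of 0.180 (without 1% O2 replicate 2). The oxygen effect at this probe was 0.95 with doxycycline and -3.63 with DAPT, so its sign was not stable across the pairs. Of 32 measured proteasome genes 2 were called, both lower, the other being Psmd7 at -0.19, whose call ended on 4 of the 8 omissions, with a highest adjusted p of 0.0576 (without N2B27 replicate 3). Of further lists, 0 of 13 aminoacyl-tRNA synthetases (limma) and 1 of 17 cytosolic chaperones were called. Others had more rises than falls, against 9.15% and 10.8% of all genes. Cell cycle inhibitors and D cyclins had 4 of 14 higher and 0 lower, Nodal and activin genes 4 of 14 and 1, FGF and ERK feedback genes 4 of 16 and 1, and Wnt targets 3 of 13 and 0. Without the block 1, 0, 1 and 1 rises of these lists were called. Of the 899 rises 158 belonged to at least 1 of the 54 lists and of the 1059 falls 104. The lists cover only 1040 of the 9826 genes tested, and most of the changed genes lay outside them.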

How the data were processed

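Gene expression was measured on 30 bead arrays of 28 mouse ES cell samples, 4 per group, and the 8 samples of the oxygen comparison were taken by their labels. The deposited main table holds a background-subtracted intensity per probe on a linear scale, not normalised between arrays per the file headers, and BeadStudio is named in the submitters' processing notes. The authors' processed intensities, deposited as a second table with a floor of 50, served as an alternative, with the method of normalization not given in the sources used here.

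Signals were corrected with normexp (offset 0), put on a log2 scale and quantile-normalised over the 30 arrays in limma 3.58.1 (R 4.3.3), and repeat arrays of the same sample were averaged. Of 24611 probes 20983 had 1 gene symbol in the platform annotation, 1 had several and 3627 had none. Named probes whose signal passed the median of the array in 4 or more of 28 samples were kept (12280). The brightest probe on average stood for each of 9826 genes, of which 1949 had another kept probe. A probe was taken as above background beyond the 98th percentile of its array's negative signals, mirrored at 0, which was 30.3 to 41.6 on the 8 arrays before and 71.9 to 76.3 after correction and normalisation, the scale of all printed signals. Where no array of a group exceeded it, "at least N-fold" sets the other group's mean against the larger of limit and signal on each array.

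All 28 samples entered a limma fit with group means and the replicate number as a block (18 residual degrees of freedom), since the comparison is paired by number. Same-numbered samples deviated together (correlations of 0.75 to 0.81, against at most 0.64 for other numbers). Tests were two-sided, with Benjamini-Hochberg adjustment over all genes tested, and the procedure was tested on simulated data. There is no read depth on arrays, so their number limits the precision. The members and the 54 lists (1040 measured genes) were chosen with earlier results of these data known. Genes were named by rule: the 20 largest called rises and falls with 1 sign in 4 pairs and above background, up to 4 called members per list and direction, and 25 genes of interest. Alternatives were the fit without the block or on 8 samples, other background corrections, scaling, filters and probe summaries, the replicate sets alone, and each sample left out.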

Additional observations from a re-analysis of the deposited data

Results flagged for a closer look

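A gap test of single samples within each group of 4 (Dixon's, at the 95% level) was run on 292 sets of values, those of 146 named genes in N2B27 and under 1% oxygen, where chance alone marks about 1 in 20. It marked 5, all in N2B27. The gap to the nearest sample took up a share of 0.971 of the range for Adm, whose N2B27 replicate 3 had a signal of 60.6 against 93.2 to 94.5 in the other samples. The share was 0.980 for Sox9, with N2B27 replicate 1 at 163 against 130 to 131. It was 0.867 for Ldha, with N2B27 replicate 1 at 16513 against 14431 to 14692. For Nxph4 it was 0.854, with replicate 2 at 57.5 against 42.0 to 44.0, below the background limit of each array. For Msmo1 it was 0.854, with replicate 4 at 6514 against 7622 to 7829. The oxygen effect differed between doxycycline and no drug for Slc2a1, by -0.79, and for Ccdc160, by 0.54, in a direct test of the difference in limma.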

How the results depend on the processing

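Against the 1958 genes called, 899 higher and 1059 lower, no replicate block gave 402 (277 and 125), the 8 samples alone 1265 (671 and 594), replicates 1 and 2 alone 979 (570 and 409), replicates 3 and 4 alone 438 (301 and 137) and an adjusted p under 0.01 1087 (597 and 490). Of these calls 402, 1190, 869 and 412 were among the 1958 in the first 4 settings. Fewer samples were used in 3 of these, and for the rest the cause was not tested. Leaving out 1 sample in turn gave 1469 to 1864 calls (723 to 874 higher, 746 to 990 lower), of which 1408 to 1682 were among the 1958. With doxycycline 1908 genes were called with and 399 with no replicate block, and with DAPT 2059 and 395, or 3332 with median scaling, whose cause was not tested. The genes that differed with doxycycline numbered 1 with no replicate block and 1 with no filter on dim probes. In the 250 bases before the start alone, ACGTG was in 32.8% of rises, 22.2% of falls and 24.6% of all genes, as the window is shorter. Car9 was -0.12 in replicates 3 and 4 alone. Nanog was -0.039 in replicates 1 and 2 alone and -0.0040 to 0.10 on leaving out 1 sample. Col1a1 was -0.052 to 0.15 on leaving out 1 sample. None of Car9, Nanog and Col1a1 was called as reported. Of the 136 called genes named, 53 were not called with no replicate block and 59 in replicates 3 and 4 alone, and 0 changed sign under any alternative run. In all of these the number of arrays and, for dim probes, the signal over background limit what can be seen.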
